A study of Homo sapiens with 4 samples.

Results

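The 10 genes described here were chosen as a readout of the Hippo pathway and of its effectors YAP and TEAD, by looking up their symbols in the authors' deposited gene table. All 10 are among the 13957 genes of the table, as presence there was part of the rule. The 10 genes were chosen with earlier results of these data known. They comprise 7 genes that are targets of YAP and TEAD, components of the pathway, or both (CCN1, CCN2, ANKRD1, AMOTL1, AMOTL2, LATS2 and AJUBA) and 3 regulators (YAP1, WWTR1 and TEAD1).

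The RNA came from MDA-MB-231 Fluc cells, a derivative of the triple-negative breast cancer line MDA-MB-231 that carries an inserted luciferase gene for imaging. In 2 samples the cells had been exposed to 50 μM cordycepin (3′ deoxyadenosine) and in 2 samples to the vehicle DMSO, in each case for 2 h. Both groups are of this same line and carry the reporter, and only the treatment differs in the labels. Libraries were stranded and ribo-depleted, and paired-end reads of 75 bp were taken from them.

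The study compared cordycepin with DMSO, and that comparison is not given here. For each gene the table holds 1 mean level and the authors' own test, and the latter was not used. The mean level is a log2 CPM, the logarithm of read counts scaled to library size, averaged by the authors with 0 columns of values for single samples. How the mean was formed is not stated, and it was read as the mean over all 4 libraries, so that every value below is a level of treated and control cells together. A high level says nothing about the response to cordycepin, and no SD, interval or test between genes or groups can be given. The depth of the libraries is unknown. As these are bulk samples, a level is a share of the RNA of all cells on a plate, and fewer expressing cells cannot be told apart from less RNA per cell.

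The Hippo pathway is a kinase cascade that restrains growth. Its last kinases, LATS1 and LATS2, phosphorylate the coactivators YAP (encoded by YAP1) and TAZ (encoded by WWTR1), which are then kept out of the nucleus. Unphosphorylated YAP and TAZ enter the nucleus and activate transcription with the DNA-binding TEAD factors. Several of their targets, including AMOTL2 and LATS2, encode inhibitors of YAP and so form negative feedback loops. MDA-MB-231 cells have lost the function of NF2, an upstream activator of the cascade.

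TEAD factors bind the M-CAT element, the core of which reads CATTCC, or GGAATG on the other strand. To show where these letters stand in the promoters of the genes described here, windows from 250 bases before to 50 bases after the transcription start were taken from RefSeq (GRCh38.p14). The RefSeq windows matched 8 of the 10 genes, with 11 windows in all, as AMOTL2, AJUBA and WWTR1 have 2 starts each. CCN1 and TEAD1 were not matched. The following stretches of 30 bases, written 5′ to 3′ on the strand of the gene, hold each match that lies before the start, with the core in capitals.

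CCN2, chr6:131951524-131951553, minus strand: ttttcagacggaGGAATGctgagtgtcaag
CCN2, chr6:131951459-131951488, minus strand: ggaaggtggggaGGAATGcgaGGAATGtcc
ANKRD1, chr10:90921290-90921319, minus strand: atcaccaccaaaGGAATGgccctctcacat
ANKRD1, chr10:90921198-90921227, minus strand: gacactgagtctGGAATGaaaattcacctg
AMOTL2, chr3:134374499-134374528, minus strand: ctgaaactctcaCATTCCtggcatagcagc
AJUBA, chr14:22976884-22976913, minus strand: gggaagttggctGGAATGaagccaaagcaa
YAP1, chr11:102110273-102110302, plus strand: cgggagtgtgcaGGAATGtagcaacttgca

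CCN2 had 3 matches, the first bases of which lie 169, 104 and 95 bases before the start. The latter pair is separated by 3 bases and stands in 1 of the stretches above. ANKRD1 had 2 matches, 220 and 128 bases before the RefSeq start. The ANKRD1 gene as the authors' table delimits it begins further upstream, at 90921276, so that the second of these stretches lies within its span. AMOTL2 and AJUBA each had 1 match, 69 and 59 bases before the start, in both cases in the window of only 1 of their 2 starts. In both genes this is the start further inside the gene. The windows that hold the 5′ ends of the gene spans, at 134375479 for AMOTL2 and 22982551 for AJUBA, had no match. YAP1, itself a regulator, had 1 match 162 bases before the start. In LATS2 the match begins 10 bases after the start, within the transcribed part, and is not printed. AMOTL1 and WWTR1 held none of these letters in their windows. All of these windows lie within the spans of the genes as the authors' table delimits them. The AMOTL1 window begins at 94768106 and the gene at 94706431. The WWTR1 windows end at 149703523 and 149658275, and the gene, on the minus strand, begins at 149736714. The sequence at the 5′ ends of both gene spans was thus not searched.

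In all, 6 of the 11 windows held the core on either strand. Among all 35116 windows in RefSeq, 4928 (14.0%) held it, and 1630 (11.4%) of the 14304 windows of genes in the table did. This is a description of letters in sequence, and no binding was measured. The letters TATAAA of the TATA box, sought on either strand, were found in 1 of the 11 windows, that of CCN2, 32 bases before the start, compared with 11.5% of all windows and 5.98% of those of genes in the table. The AP-1 letters TGACTCA, likewise sought on both strands, were in 0 of the 11 windows, in 4.95% of all windows and in 3.47% of those of genes in the table. No match of one motif overlapped a match of another.

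**Figure D1:**
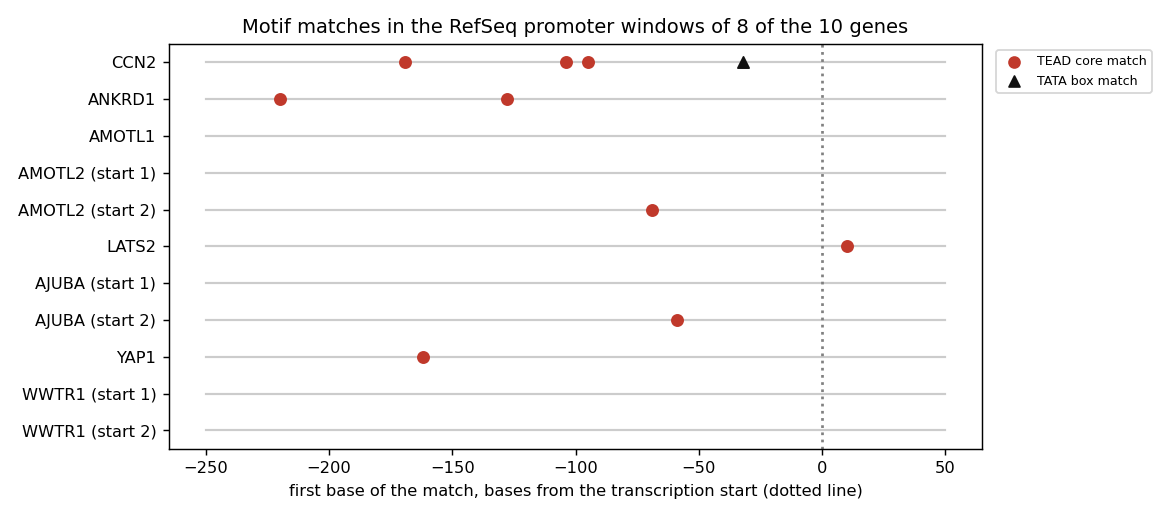
Position of the TEAD core (circles) and the TATA box (triangle) in the RefSeq promoter windows of 8 genes. The horizontal axis gives the first base of each match in bases from the transcription start, and each grey line is 1 window. CCN2 has 3 core matches within 169 bases before its start.

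The GC content of the 11 windows ranged from 37.0%, at 1 start of WWTR1, to 72.7%, at 1 start of AMOTL2. AJUBA had 67.7% at one start and 47.0% at the other, and the other WWTR1 start had 63.0%. ANKRD1 and CCN2 had GC contents of 52.7% and 54.3%, below the median of 65.0% for windows of genes in the table. YAP1 and AMOTL1 had 70.7% and 72.0%, and LATS2 had 67.7%. YAP1 had the most CpG dinucleotides, 40 in 300 bases, where the median for genes in the table was 25. The fewest were 1 each at the WWTR1 start of low GC content and at 1 start of AMOTL2, followed by 3 at 1 start of AJUBA and 5 in ANKRD1. Both AMOTL2 starts differed in this respect, with 1 CpG in one window and 37 in the other. The AMOTL2 window with the TEAD core is the one with 37.

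The secreted matricellular proteins CCN1 (also CYR61) and CCN2 (also CTGF) are the most widely used YAP and TEAD targets. CCN1 (ENSG00000142871, chr1:85580761-85583950, plus strand, GRCh38) had a mean level of 8.57 log2 CPM, or 381 CPM. CCN2 (ENSG00000118523, chr6:131948176-131951372, minus strand) had 8.10 log2 CPM, or 274 CPM. Of the 13957 genes, 97.1% had a lower mean log2 CPM than CCN1 and 95.4% a lower one than CCN2. ANKRD1 (ENSG00000148677, chr10:90912096-90921276, minus strand), which encodes an ankyrin repeat protein first known from muscle, had 6.85 log2 CPM. In these cells the 3 standard YAP targets thus stood between percentiles 86.0 and 97.1 of mean log2 CPM.

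Counts grow with the length of a transcript, so levels of different genes were compared per kilobase of the gene length in the authors' table. On this scale CCN1 had 7.28, CCN2 6.88 and ANKRD1 5.86 log2 CPM per kb. They were the highest of the 10 genes, and 97.9%, 97.1% and 93.7% of genes in the table were lower. CCN1 and CCN2 lay 0.41 apart. With the longest GENCODE transcript as the length, CCN1 fell to 6.95 log2 CPM per kb and the gap to CCN2 was 0.07. Whether these neighbours differ beyond their spread cannot be said.

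The angiomotins are scaffold proteins that bind YAP and hold it at cell junctions and in the cytoplasm. AMOTL1 (chr11:94706431-94876748, plus strand) had a mean log2 CPM of 7.09 and AMOTL2 (chr3:134355874-134375479, minus strand) one of 6.34. Per kilobase both came to 3.76 log2 CPM per kb, with 73.3% and 73.2% of genes lower. The difference in mean log2 CPM between both genes thus had no counterpart per kilobase of the authors' length. This length is 10030 bases for AMOTL1 and 5984 bases for AMOTL2. With the longest transcript as the length the order was turned, with 4.06 for AMOTL2 and 3.92 for AMOTL1, in log2 CPM per kb. AMOT, the third angiomotin, was not among the genes of the table.

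LATS2 (chr13:20973036-21061586, minus strand) had the lowest level of the 10 genes on each scale used, with 5.04 log2 CPM and 2.55 log2 CPM per kb. It lay close to the median of all genes, which was 2.43 log2 CPM per kb. Its paralogue LATS1 had 5.24 log2 CPM and 2.15 log2 CPM per kb, so the order of these kinases depended on whether length was taken into account. AJUBA (chr14:22971177-22982551, minus strand), a LIM domain protein that binds LATS kinases and inhibits them, had 7.53 log2 CPM and 4.98 log2 CPM per kb. The related LIMD1 had 1.17 log2 CPM per kb and WTIP 1.76, both lower than AJUBA by more than 3 on the log2 scale.

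Among the regulators, TEAD1 (chr11:12674421-12944737, plus strand) was the highest, with a mean log2 CPM of 8.43. YAP1 (chr11:102110447-102233424, plus strand) had 7.48 and WWTR1 (chr3:149517235-149736714, minus strand) 6.04. Per kilobase these were 5.01, 4.83 and 2.97 log2 CPM per kb. TEAD1 and YAP1 thus had levels within 0.18 of each other per length, and WWTR1 was 1.86 lower than YAP1. With the longest transcript the levels were 5.19 for TEAD1, 5.05 for YAP1 and 3.71 for WWTR1, in log2 CPM per kb.

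The other TEAD genes all had lower levels than TEAD1. TEAD3 had 3.81, TEAD4 3.16 and TEAD2 3.01 log2 CPM per kb. The difference between TEAD1 and TEAD3, the next highest, was 1.19 on the log2 scale. VGLL4, a cofactor that competes with YAP for TEAD, had 0.36 log2 CPM per kb, a level higher than that of 17.5% of genes.

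**Figure D2:**
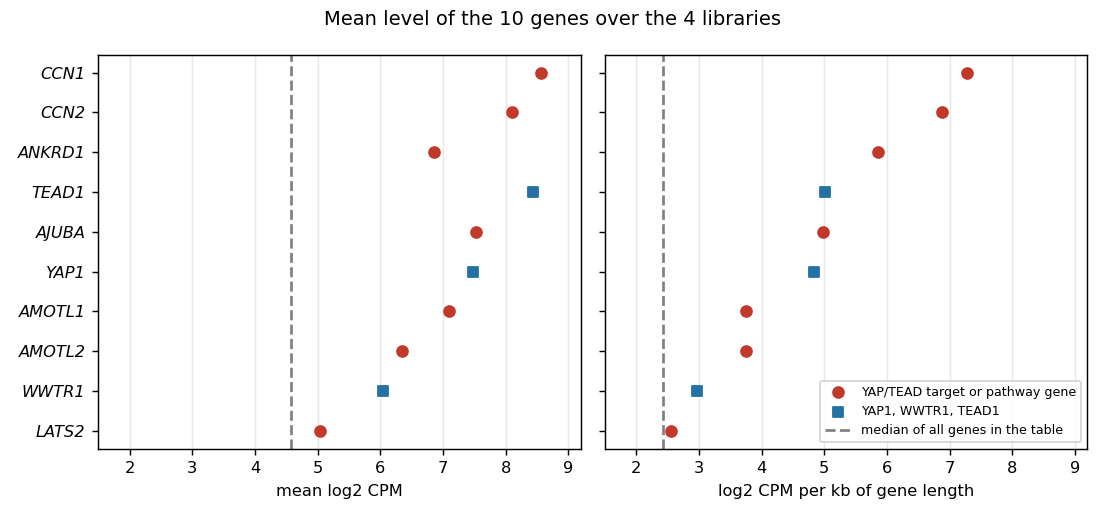
Mean levels of the 10 genes, as log2 CPM (left) and as log2 CPM per kilobase of gene length (right), from the authors' mean log2 CPM, which was read as a mean over treated and control libraries. The points have no error bars, as the table holds no values for single samples. TEAD1 stands between CCN1 and CCN2 on the left but below ANKRD1 on the right, and LATS2 is lowest on both.

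Target or pathway genes and regulators were then compared. The 7 target or pathway genes had a median level of 4.98 log2 CPM per kb, ranging from 2.55 (LATS2) to 7.28 (CCN1). The 3 regulators had a median level of 4.83, from 2.97 (WWTR1) to 5.01 (TEAD1). The medians differed by 0.15, and the ranges overlapped. Without division by length the difference was turned, with a median of the target or pathway genes 0.39 below that of the regulators in mean log2 CPM. Only the secreted proteins CCN1 and CCN2 and the ankyrin repeat gene ANKRD1 had levels per length above all 3 regulators, and with the longest transcript AJUBA (5.47 log2 CPM per kb) was above them too. All 10 genes were above the median of all genes on both scales, though with the longest transcript as the length LATS2 (2.57 log2 CPM per kb) was below the median of 2.84.

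The gene models of CCN1, CCN2 and ANKRD1 were shorter than those of TEAD1, YAP1 and WWTR1. This did not hold for all target or pathway genes. AMOTL1 and LATS2 have canonical transcripts of 8980 and 5546 bases, longer than those of YAP1 and WWTR1. Those of AMOTL2 and AJUBA, with 4868 and 4168 bases, are shorter. AMOTL1 spans 170318 bases, more than YAP1. The canonical transcripts of CCN1, CCN2 and ANKRD1 in GENCODE release 44 are 2278, 2338 and 1790 bases long. In the coordinates of the authors' table, which for CCN1 and ANKRD1 differ from release 44, these genes span 3190 to 9181 bases. Those of TEAD1, YAP1 and WWTR1 are 9417, 5401 and 5037 bases long, and the genes span 270317, 122978 and 219480 bases in that table. Untranslated sequence makes up 86.4% of the canonical TEAD1 transcript, 76.2% of that of WWTR1 and 72.0% of that of YAP1. In CCN1, CCN2 and ANKRD1 it makes up 49.8%, 55.2% and 46.5%. All 10 genes are protein coding, with 5 to 13 exons in the canonical transcript. YAP1, TEAD1 and AMOTL1 lie on chromosome 11, and AMOTL2 and WWTR1 on chromosome 3.

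The length used for a gene matters most where transcripts differ. The authors' length for WWTR1, 8413 bases, is 1.67 times that of its canonical transcript, and for AJUBA the factor is 1.41. Over the genes of the table this factor had a median of 1.35. The other genes described here were below that median, with at most 1.23, for AMOTL2. For CCN2 both lengths were 2338 bases. With the longest transcript as the length, a smaller share of all genes was lower than each of these other genes. For CCN1 the share fell from 97.9% to 96.3% and for LATS2 from 52.2% to 45.1%. For AJUBA and WWTR1 it rose. AMOTL2, LATS2, AJUBA, WWTR1 and TEAD1 each overlap 1 other gene on the same strand in GENCODE, and how reads in such overlaps were assigned is not given in the sources used here. The other 5 genes overlap none on their own strand. On the opposite strand CCN2, AMOTL1, LATS2, YAP1, WWTR1 and TEAD1 overlap other genes. Only CCN1 and ANKRD1 overlap none on either strand.

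A list of 32 Hippo pathway genes, 7 of them among the genes described so far, was examined for the other components of the cascade. Of this list 31 genes were in the table, with a median level of 3.01 log2 CPM per kb, and 24 of the 31 were above the median of all genes. Among the kinases upstream of LATS, STK4 (MST1) had 3.36 and STK3 (MST2) 1.31 log2 CPM per kb. MAP4K4, which can act in parallel to the MST kinases, had 4.86. TAOK1, TAOK2 and TAOK3, which phosphorylate MST kinases, had between 2.77 and 3.01. Their levels were between 3.19 and 4.12 with the longest transcript as the length. The scaffold SAV1 had 3.35 log2 CPM per kb, and the LATS cofactors MOB1A and MOB1B had 4.84 and 2.75. Thus in the pairs of paralogues STK4 and STK3, and MOB1A and MOB1B, one gene was higher by over 2 on the log2 scale, though for STK4 and STK3 the difference was 1.00 with the longest transcript as the length.

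Upstream and junctional components ranged widely. NF2 had 3.69 log2 CPM and 0.80 log2 CPM per kb, with 23.0% of genes lower per length. WWC1, WWC2 and WWC3 had 2.92, 2.94 and 4.21 log2 CPM per kb. FRMD6 had 4.51 and the phosphatase PTPN14, which binds YAP, 4.06. The giant cadherins FAT1 and DCHS1 were far apart, with 4.93 for FAT1 and -2.30 for DCHS1, the lowest of the list. With the longest transcript as the length FAT1 had 5.06, below FRMD6 with 5.39.

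Of a list of 22 genes described as targets of YAP and TEAD, 6 of them among the genes above, all 22 were in the table. Their median level was 4.23 log2 CPM per kb, and 19 of the 22 were above the median of all genes. The 16 that are not among the 10 genes had a median of 3.97, and 13 of these were above the median of all genes. The receptor tyrosine kinase AXL had the highest level, 8.65 log2 CPM per kb, above 99.3% of genes. NT5E, which encodes the ectonucleotidase CD73, had 7.46, the coagulation receptor F3 6.88 and the membrane repair protein MYOF 6.11. CRIM1 had 5.79 and FJX1 5.12. At the lower end were the kinase NUAK2, at -0.51, and RBMS3, at 1.00 log2 CPM per kb. Per kilobase of the authors' length, AXL and NT5E were the genes among the 22 above CCN1. With the longest transcript F3 (7.21 log2 CPM per kb) was above it as well, and without division by length AXL, NT5E, MYOF and CRIM1 (8.65 log2 CPM) were.

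**Figure D3:**
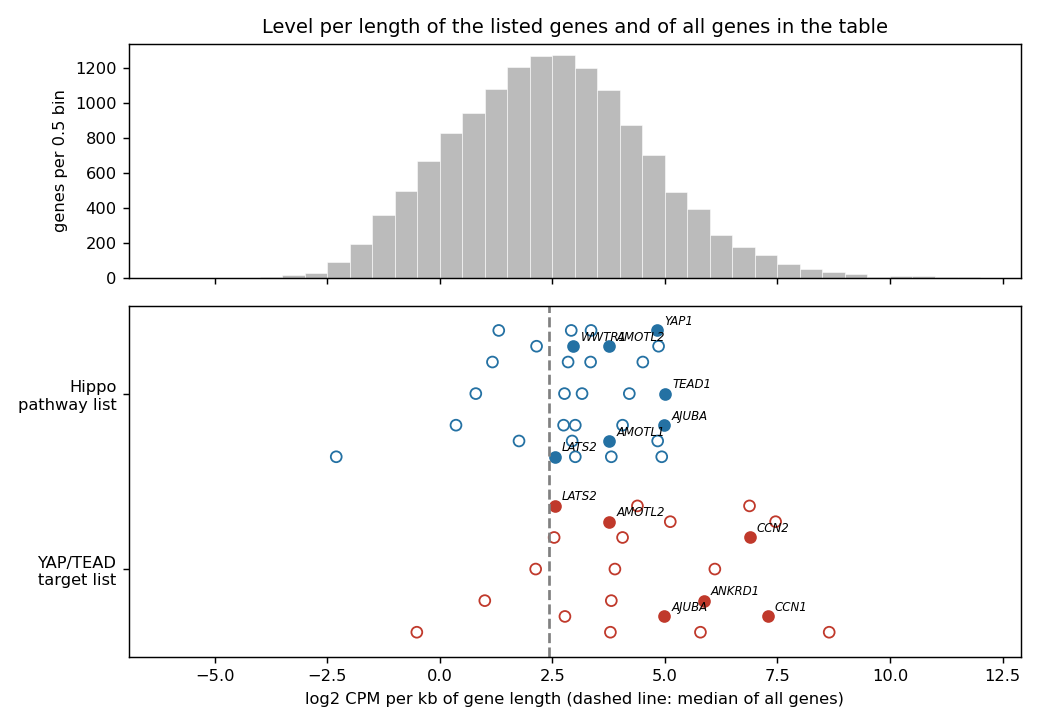
Levels per length of 2 gene lists, as log2 CPM per kb. The upper panel counts all 13957 genes in bins, the lower panel shows each listed gene as a point, with filled, named points for the 10 genes, a vertical offset for legibility only, and a dashed line at the median of all genes (2.43). CCN1 and CCN2 lie near the upper end of the target list and LATS2 lies beside the median in both lists.

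The cell line was checked against markers. VIM (vimentin), CD44 and AXL, which mark mesenchymal-like breast cancer lines, had mean log2 CPM values of 10.45, 10.57 and 11.01. SPARC, the remaining mesenchymal marker, was not among the genes of the table. ESR1 and PGR, which encode the oestrogen and progesterone receptors, were not among its genes either. CDH1 (E-cadherin) had 3.68 log2 CPM and 1.07 log2 CPM per kb, below the medians of all genes (4.58 and 2.43). The luminal factor GATA3, listed as a marker that should be low, had 4.48 log2 CPM, near the median, and 2.72 log2 CPM per kb, above it. The mean log2 CPM of genes in the table ranged from 0.56 to 13.43.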

How the data were processed

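The paper's methods name GRCh38.p13 as the genome to which the authors mapped reads, and rsubread as the counter. The submitters' processing notes name TopHat, HTSeq, DESeq and Cufflinks with hg38. Which tools made the table, these or others, is not given in the sources used here, nor are the filter on low counts and the scaling. The authors' deposited table gives 1 mean log2 CPM, a gene length, and coordinates for each of 13957 genes. How the mean was formed is not stated, and it was read as the mean over all libraries of the comparison. Raised to linear scale, its mean values sum to 1005541. Another 4 columns hold the authors' own comparison of cordycepin with DMSO (fold changes with their F statistics, p-values and adjusted p-values), and they were not used. The table has 0 columns for single samples, so the planned tests between groups were not made.

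Levels per kilobase are the mean log2 CPM less the log2 of the gene length in kilobases. Of the gene IDs, 99.7% were in GENCODE release 44, on the same build, and 82.1% of these had the same start and end. The authors' length was within 1% of the merged exons of release 44 for 81.7% of genes. Alternatives were levels not divided by length, the longest transcript as the length, protein coding genes only, and lists without the 10 genes. Motif search and levels per length were tested on simulated data. All 10 genes and those of 2 lists were to be named. The members and lists were chosen with earlier results of these data known. The software was matplotlib 3.10.9, pandas 2.3.3 and numpy 2.4.6 under Python 3.11.15.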

Additional observations from a re-analysis of the deposited data

How the results depend on the processing

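No paired analysis was possible because the table holds no values for single samples. For the same reason no other tool, filter, pseudocount or left-out replicate could be tried, and the depth limits the precision by an unknown amount. On the log2 scale, the median of the 7 target or pathway genes less that of the 3 regulators was 0.15 per kilobase of the authors' length. It was 0.42 with the longest transcript and -0.39 without division by length, so its sign depended on the length. The median of the 7 target or pathway genes less that of all genes was 2.54. The alternatives gave 2.51 without division by length, 2.63 with the longest transcript and 2.46 against protein coding genes only. For the 3 regulators this distance was 2.39, and it became 2.90, 2.21 and 2.31 in the same order. The Hippo pathway list lay 0.57 above all genes, and 1.66, 0.87 and 0.49 above in that order, or 0.54 without the 10 genes. For the list of targets it was 1.79, then 2.31, 1.73 and 1.71, or 1.54 without the 10 genes. These 4 distances to all genes were positive with each alternative.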
